A study of Homo sapiens with 5 samples.

Results

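Pyruvate was added on its own to H1 cells, an established line of human embryonic stem cells, and transcript levels after 2 days were set against those of H1 cells kept in plain E8, a chemically defined medium for such cells. The genes considered were all those with a named probe detected on either of the 2 arrays, at a detection p under 0.01. They numbered 11475 of the 20041 genes with a named probe on the array, and 12418 genes were detected on at least 1 of the series' 5 arrays. Both arrays detected 10257 of these genes, the pyruvate array alone detected 154 and the E8 array alone 1064.

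The cells grew on Matrigel with the medium changed every day, and total RNA was labelled with biotin and hybridised to BeadChips of Illumina, which carry probes of fixed sequence. The main pair was E8 with 16 mM added pyruvate for 2 days, and E8 with none added for 2 days. A second pair, which shares no array with the first, was BMP4 with 16 mM pyruvate for 2 days, and BMP4 without it for 2 days, both in E8. BMP4 is a secreted ligand that drives these cells towards mesoderm, and the title of the series links raised pyruvate to that step by way of metabolism and of AMPK and mTOR signalling. The remaining array, of BMP4 with pyruvate at 6 days, entered the normalization only. The labels distinguish low and high culture density but do not say which one these cultures had. Every condition was 1 array of 1 line, so the differences lack any check by replicates and carry no p-value.

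Pyruvate is the end product of glycolysis. It can be reduced to lactate, which uses up NADH, or enter the mitochondria to feed the tricarboxylic acid cycle, and it reacts directly with hydrogen peroxide. Human embryonic stem cells rely strongly on glycolysis, and their undifferentiated state is held by fibroblast growth factor and by NODAL and activin signals.

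Differences are pyruvate minus E8 in log2 of the normalized intensity, so a positive value is higher with pyruvate. A gene was called higher or lower at a log2 difference of 1 or more in size, which is 2-fold, provided that the brighter array detected it. No test stands behind this size rule. With pyruvate, 120 genes were higher (1.05% of the genes tested) and 152 were lower (1.32%), so 2.37% were called in either direction. The calls were 44.1% higher ones, and 62.8% when each array was scaled to its 75th percentile in place of quantile normalization, which moved the median of all genes to 0.06. Over all genes the median difference was 0.00, with quartiles of -0.21 and 0.21.

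The clearest differences concerned a few groups. All 6 detected metallothioneins, which bind zinc and copper, were lower with pyruvate, MT1G by the most at 5.45-fold. The ligand NODAL, its inhibitors LEFTY1 and LEFTY2 and the related ligand GDF3 were higher. So were TIMP4, an inhibitor of matrix proteases, at 5.23-fold, HAS2, a synthase of hyaluronan, at 3.85-fold, and the oxidant-response genes NQO1 and HMOX1. TXNIP, a glucose-responsive inhibitor of thioredoxin, was lower. Of these genes MT2A, GDF3 and HMOX1 kept their calls under 8 of 9 alternatives of processing, and the rest under all 9. Of 49 lists of genes, 26 had no member past the size rule, among them glycolysis, the tricarboxylic acid cycle and the respiratory chain.

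Most calls concerned dim genes. The genes were split by mean level into 3 groups of 3825. Among the dim ones, 103 were higher and 121 lower, which is 5.86% of that group. In the middle group 9 were higher and 22 lower (0.810%), and among the bright ones 8 and 9 (0.444%). Without background correction, 23 of the 272 calls passed the size rule, and 14 of these were bright. A total of 87 called genes lay between 1 and 1.1 in absolute difference, and 150 others lay between 0.9 and 1 and were not called. For 2522 genes a second probe was detected on both arrays, and the SD of the difference between the 2 probes was 0.33. Of the 16 called genes among them, 15 had the same sign by the second probe and 5 passed the size rule again, namely DTNA, FGF8, HSPA2, SPP1 and TPM1.

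**Figure D1:**
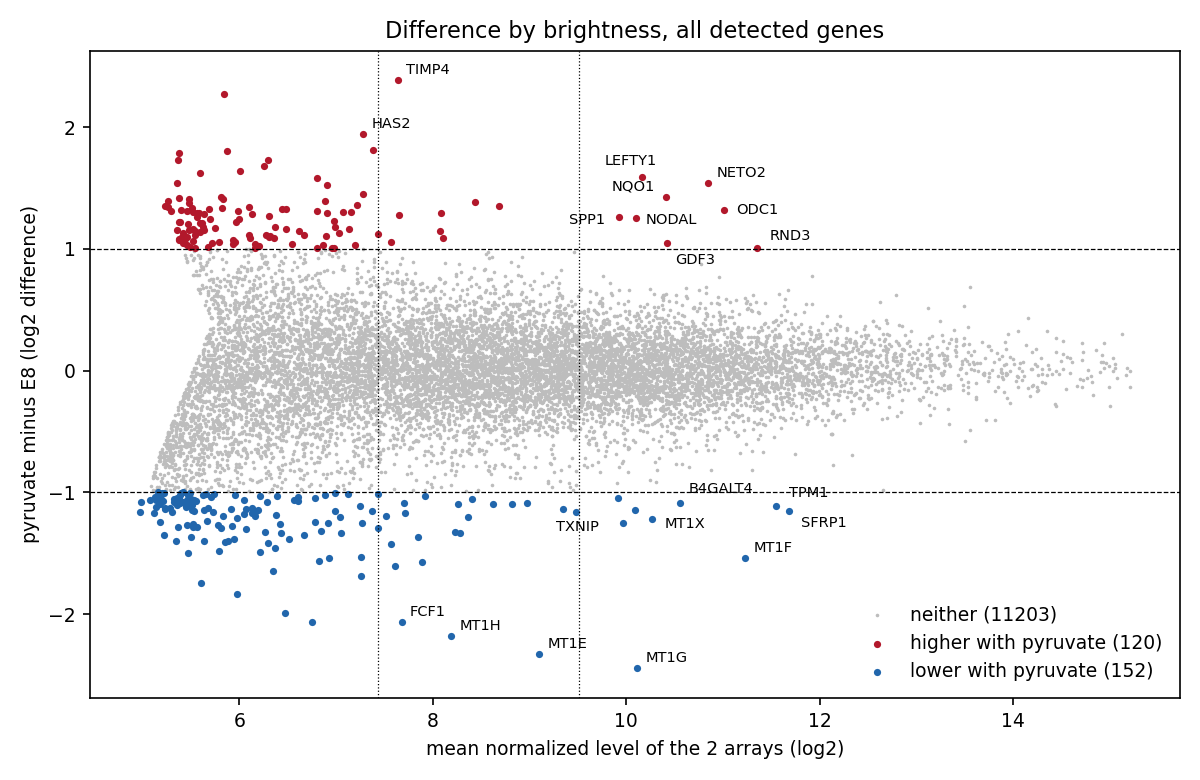
Log2 difference, pyruvate minus E8, against the mean normalized log2 level of both arrays, a point a gene. Dashed lines mark the size rule, dotted lines the borders of the 3 groups by level, red points the 120 genes higher and blue points the 152 genes lower with pyruvate; most coloured points lie among the dim genes, and the metallothioneins stand lowest among the brighter genes.

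The plot of difference by level shows how the scatter widened towards dim genes, which is why genes are described below with both levels. The 23 genes that also passed without background correction were picked after their values were seen, and ODC1, SPP1 and B4GALT4 among them are outside the rule for named genes. They were 11 higher and 12 lower genes. All of these except B4GALT4, a galactosyltransferase, passed under all 9 alternatives of processing. B4GALT4, at 10.01 with pyruvate and 11.10 in E8, passed under 7.

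**Figure D2:**
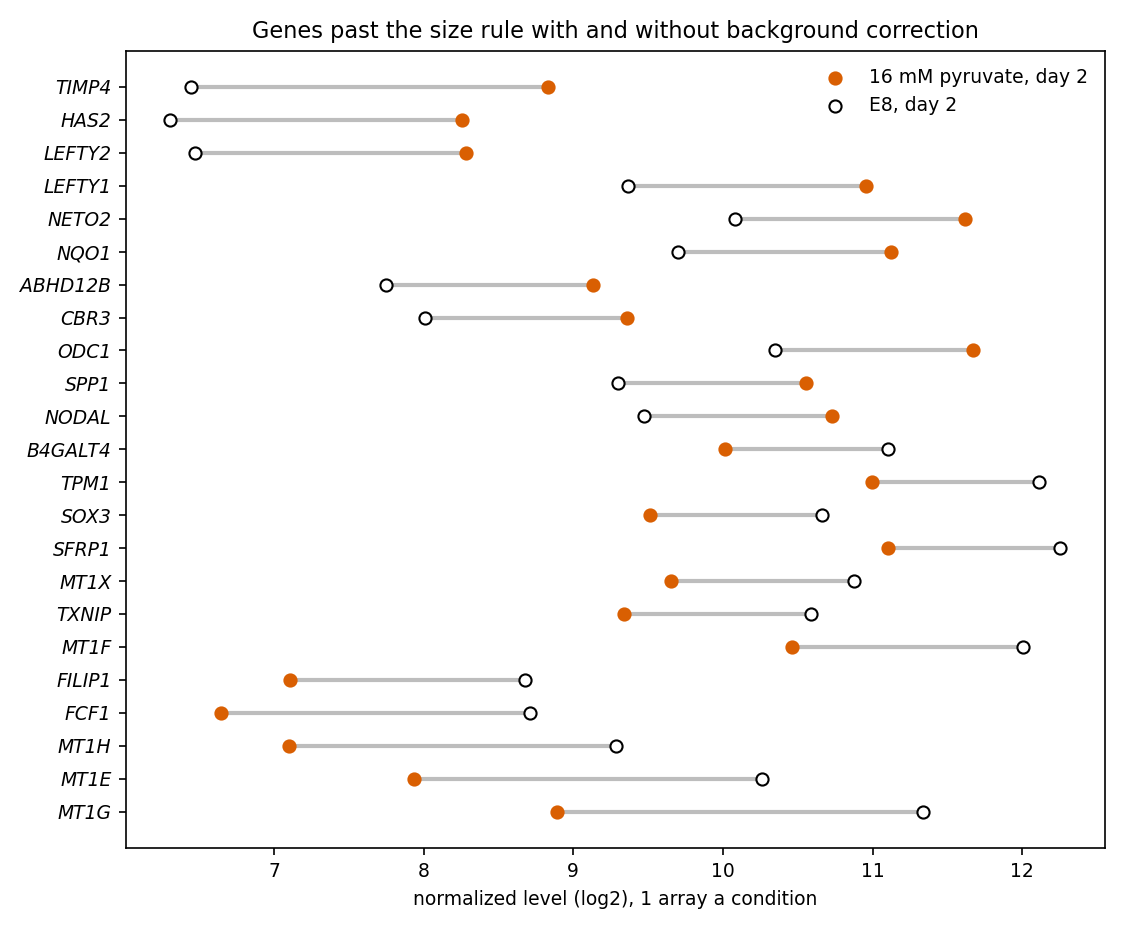
Normalized log2 levels of the 23 genes past the size rule with and without background correction, from the highest positive to the lowest negative difference. Filled points are the pyruvate array and open points the E8 array, 1 array each; the upper 11 genes are brighter with pyruvate, and the 5 lowest rows hold 3 metallothioneins with FILIP1 and FCF1.

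The metallothioneins formed the most uniform group. These cysteine-rich proteins store and buffer zinc and copper, and their genes lie in 1 cluster on chromosome 16. MT1G had a normalized level of 8.89 with pyruvate and 11.34 in E8, a difference of -2.45, from raw intensities of 546 with pyruvate and 3094 in E8. MT1E had 7.94 with pyruvate and 10.26 in E8, a difference of -2.33. MT1H had 7.10 with pyruvate and 9.28 in E8, a difference of -2.18, and its other detected probe gave -0.98. These were the 3 largest negative differences among named genes detected on both arrays. MT1F, the brightest, had 10.46 with pyruvate and 12.004 in E8. MT2A had 7.57 with pyruvate and 8.90 in E8, and MT1X had 9.66 with pyruvate and 10.88 in E8. All 6 were thus lower by 1.22 or more, with a median of -1.86 where all genes had 0.00. Over all genes 1.32% were called lower. The other 5 metallothioneins with a probe, MT1B, MT1M, MT1L, MT3 and MT4, were detected on neither array. The paralogs are close in sequence, so it is uncertain which copy each probe reads, and the 6 values may not be 6 separate measurements.

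The metallothionein genes carry metal response elements in their promoters, which the zinc-sensing factor MTF1 binds. The promoters of MT2A, MT1H and MT1X are printed because these genes were among the 6 lower ones. They run from 250 bases before to 50 after the start of each gene and are credited to RefSeq on GRCh38.p14. Capitals mark the element's core, TGCACNC or TGCGCNC on either strand.
MT2A, chr16:56608334-56608633, plus strand: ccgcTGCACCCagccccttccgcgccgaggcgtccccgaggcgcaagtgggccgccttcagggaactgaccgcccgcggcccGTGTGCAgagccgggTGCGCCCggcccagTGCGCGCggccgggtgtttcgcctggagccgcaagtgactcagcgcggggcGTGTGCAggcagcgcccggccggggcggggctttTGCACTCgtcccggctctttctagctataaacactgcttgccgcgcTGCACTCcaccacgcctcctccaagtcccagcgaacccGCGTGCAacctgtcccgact
MT1H, chr16:56669564-56669863, plus strand: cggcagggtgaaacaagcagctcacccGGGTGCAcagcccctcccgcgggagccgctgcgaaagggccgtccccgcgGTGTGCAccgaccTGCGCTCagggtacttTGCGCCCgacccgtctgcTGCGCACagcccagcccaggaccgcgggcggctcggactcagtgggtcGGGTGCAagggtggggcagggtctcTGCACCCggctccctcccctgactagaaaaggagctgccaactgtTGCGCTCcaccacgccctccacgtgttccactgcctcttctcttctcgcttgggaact
MT1X, chr16:56682220-56682519, plus strand: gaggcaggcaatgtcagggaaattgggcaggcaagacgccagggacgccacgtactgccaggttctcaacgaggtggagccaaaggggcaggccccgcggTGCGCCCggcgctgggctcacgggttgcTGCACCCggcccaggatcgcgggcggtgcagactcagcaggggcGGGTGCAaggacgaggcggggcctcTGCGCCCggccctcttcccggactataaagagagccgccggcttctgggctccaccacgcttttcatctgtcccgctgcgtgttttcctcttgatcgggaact
The core occurred 8 times in the promoter of MT2A, 8 times in that of MT1H and 4 times in that of MT1X. Among 35116 promoters of the same length, 29.6% held at least 1 copy, 0.601% at least 4 and 0.0740% at least 6. A match of letters is a description and not a measured binding site.

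Other genes of zinc handling did not pass the size rule. MTF1 itself stood at 8.47 with pyruvate and 8.44 in E8. SLC30A1, the zinc exporter of the cell surface and a known MTF1 target with 2 copies of the core in its promoter, had 7.23 with pyruvate and 7.59 in E8, a difference of -0.36. At least 2 copies occurred in 8.6% of promoters. Of 19 detected genes for zinc and copper transport and sensing, 0 passed the size rule, the median was 0.13, and 14 lay above 0 where 49.97% of all genes did. The furthest were the importers SLC39A8, at 9.92 with pyruvate and 9.42 in E8, and SLC39A14, at 11.07 with pyruvate and 10.61 in E8.

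Among ligands of the NODAL pathway, NODAL had 10.73 with pyruvate and 9.47 in E8, a difference of 1.26. GDF3, a related ligand, had 10.94 with pyruvate and 9.90 in E8, a difference of 1.04. LEFTY1 and LEFTY2, neighbouring genes on chromosome 1 whose products block NODAL and which NODAL signals induce, were higher by more. LEFTY1 had 10.95 with pyruvate and 9.37 in E8, a difference of 1.59. LEFTY2 had 8.28 with pyruvate and 6.47 in E8, a difference of 1.81. DACT1, an intracellular regulator of WNT signals that was counted in this list, was dim at 6.67 with pyruvate and 5.66 in E8. Its other probe differed by 1.46. Its call held under 6 of the 9 alternatives. In all, 5 of the 19 detected members (26.3%) were higher and 0 were lower, where 1.05% of all genes were higher. The list median was 0.24.

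The receptors and signal carriers of the pathway did not pass the rule. ACVR2B, a type II activin receptor, had 7.92 with pyruvate and 8.71 in E8, and ACVR2A had 7.92 with pyruvate and 8.30 in E8. The coreceptor CRIPTO had 8.63 with pyruvate and 8.94 in E8. SMAD2, SMAD3 and SMAD4, which carry the signal to the nucleus, differed by 0.15, 0.24 and 0.18. SMAD7, an inhibitor that several TGF-beta family signals induce, had 9.95 with pyruvate and 9.30 in E8, and its other probe differed by 0.63. The higher members were thus ligands, inhibitors and DACT1, and 0 of the detected receptors or SMADs passed.

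The label of undifferentiated stem cells was checked against 12 marker genes. All were detected on both arrays, with differences from -0.58 for PODXL, a cell-surface sialomucin, to 0.44 for NANOG, a core pluripotency factor. POU5F1 had 12.17 with pyruvate and 12.39 in E8, although its other probe differed by 0.77. SOX2 had 12.53 with pyruvate and 12.64 in E8, and DNMT3B had 14.04 with pyruvate and 13.80 in E8. Of 32 detected pluripotency genes, 1 was higher (3.1%), GDF3, and 1 was lower (3.1%), DPPA5, at 5.99 with pyruvate and 7.35 in E8. The list median was 0.01, and over all genes 1.05% were higher and 1.32% lower. KLF4, at 9.03 with pyruvate and 8.07 in E8, fell just short of the rule with 0.96, and its other probe gave 0.83.

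Markers of other cell types were mostly dim or undetected, and in such bulk RNA fewer cells of a type cannot be told apart from less RNA per cell. For primitive streak genes, which mark the first step towards mesoderm and endoderm, 12 of 18 were detected on neither array, including TBXT, MIXL1, EOMES and GSC. Of the 6 detected, 3 were higher and 0 lower, and NODAL, one of the 3, is also counted above. FGF8, a growth factor of the streak, had 8.005 with pyruvate and 6.55 in E8, and its other probe differed by 1.34. WNT3 had 6.68 with pyruvate and 5.64 in E8. WNT3 kept its call under 6 of the 9 alternatives of processing. The summed linear level of the 6 was 2464 with pyruvate and 1521 in E8, and without NODAL it was 771 with pyruvate and 812 in E8. CYP26A1, which degrades retinoic acid, had 8.24 with pyruvate and 9.03 in E8. The part of other cell types in the NODAL pathway values was not tested.

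Of 21 mesoderm genes, 15 were undetected, HAND1, GATA4, GATA6 and TBX6 among them, and the summed linear level of the other 6 was 666 with pyruvate and 580 in E8. Without KDR it was 267 with pyruvate and 351 in E8, and 4 of the 6 were undetected with pyruvate. FOXC2, a mesodermal transcription factor, was undetected with pyruvate and at least 1.98-fold lower there than in E8. PDGFRA, a receptor of early mesoderm, had 6.61 with pyruvate and 5.63 in E8, and KDR, a receptor of vascular progenitors, had 8.64 with pyruvate and 7.84 in E8; neither passed the rule. Of endoderm genes 10 of 13 were undetected, with SOX17 and FOXA2 among them, and of trophoblast and amnion genes 16 of 19, with GATA3 and KRT7 among them. In the trophoblast list GABRP, a subunit of a GABA receptor, was lower at 6.78 with pyruvate and 8.08 in E8. Among cardiac and smooth muscle genes, 11 of 16 were detected. ACTA2, the smooth muscle actin, was higher at 7.30 with pyruvate and 6.30 in E8. TNNI3, a cardiac troponin, was lower at 6.17 with pyruvate and 7.41 in E8, as was TPM1. Of the 11, 9.09% were thus higher and 18.2% lower, where 1.05% and 1.32% of all genes were. The call of ACTA2 held under 5 of the 9 alternatives and that of TNNI3 under 6. Of 8 detected fibroblast and stromal genes 0 passed the rule, with VIM at 10.98 with pyruvate and 11.15 in E8.

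Of 14 detected neuroectoderm genes 10 lay below 0, with a median of -0.28, but 3 of the 10 were detected on the E8 array alone. Of all genes detected on that array alone 10.1% lay above 0. Of the 11 detected on both arrays 7 lay below 0, with a median of -0.21, where 53.4% of all genes detected on both lay above 0. SOX3, a transcription factor of neural progenitors, was the only member called, so 7.14% of the 14 were lower, where 1.32% of all genes were. It had 9.51 with pyruvate and 10.66 in E8, a difference of -1.15. OTX2, a regulator of anterior neural fate, had 8.14 with pyruvate and 9.08 in E8, a difference of -0.94 with -0.99 by its other probe. SOX21 had 10.55 with pyruvate and 11.12 in E8. The summed linear level of the 14 was 9411 with pyruvate and 11486 in E8. HESX1, an anterior homeobox gene, lay on the other side at 7.84 with pyruvate and 6.93 in E8.

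Calls among genes of the extracellular matrix ran in both directions. TIMP4 had 8.83 with pyruvate and 6.44 in E8, from raw intensities of 530 with pyruvate and 230 in E8. This difference of 2.39 was the largest positive one among genes detected on both arrays. HAS2 had 8.25 with pyruvate and 6.31 in E8, and CD44, a cell-surface receptor for hyaluronan, had 7.59 with pyruvate and 6.01 in E8. The call of CD44 held under 8 of the 9 alternatives. SPP1, a secreted matrix protein that also binds CD44, had 10.56 with pyruvate and 9.30 in E8, and its other probe differed by 1.11. In the list of hyaluronan and matrix-remodelling genes 3 of 21 detected members were higher (14.3%) and 2 were lower (9.52%). Over all genes 1.05% were higher and 1.32% lower. The list median was 0.23. The lower members were HAPLN3, a link protein, at 6.39 with pyruvate and 7.72 in E8, and MMP24, a membrane-bound protease, which was undetected with pyruvate and at least 2.07-fold lower there.

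Among the collagens, laminins and integrins, 0 of 33 detected members passed the rule, while 27 lay below 0 and the median was -0.22. Of the 27, 3 were detected on the E8 array alone. Of the 30 detected on both arrays 24 lay below 0, with a median of -0.20, where all genes detected on both had 0.02. COL4A6, a basement-membrane collagen, had 7.82 with pyruvate and 8.58 in E8. LAMA1 and LAMC1, chains of laminins, differed by -0.33 and -0.24. The list lay on the other side in the BMP4 pair, with a median of 0.40 and 22 of 31 detected members above 0. There 3 were higher and 0 lower, where 3.72% and 3.06% of all genes were.

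Several genes that respond to oxidants or electrophiles were higher. NRF2, encoded by NFE2L2, is the transcription factor that induces many of them. NQO1, a quinone reductase, had 11.12 with pyruvate and 9.70 in E8, a difference of 1.42. HMOX1, which degrades haem, had 7.59 with pyruvate and 6.19 in E8, a difference of 1.40. CBR3, a carbonyl reductase outside the list, had 9.36 with pyruvate and 8.01 in E8. ME1, which makes NADPH from malate and yields pyruvate, had 9.08 with pyruvate and 8.15 in E8, just short of the rule at 0.94. The subunits of the enzyme that starts glutathione synthesis, GCLM and GCLC, differed by 0.51 and 0.45.

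Most of the list stayed under the size rule. The thioredoxin reductase TXNRD1 had 9.80 with pyruvate and 10.004 in E8, and NFE2L2 itself had 10.11 with pyruvate and 9.93 in E8. In all, 2 of 20 detected members were higher and 0 lower, where 1.05% of all genes were higher and 1.32% lower. The list median was 0.04. The list of peroxide and superoxide defence had 0 of 18 members past the rule and a median of 0.01, with catalase, CAT, at 8.96 with pyruvate and 9.39 in E8. The core of the antioxidant response element, TGACNNNGC on either strand, occurred 2 times in the promoter of ME1, once in that of GCLM and not in that of NQO1, within the same window, and 13.3% of promoters held at least 1.

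TXNIP had 9.34 with pyruvate and 10.59 in E8, a difference of -1.25 from raw intensities of 709 with pyruvate and 1892 in E8. The factor MondoA, encoded by MLXIP, induces TXNIP when glucose phosphates are plentiful, through paired E-boxes in its promoter. That promoter is shown because TXNIP was called lower in both pairs of arrays, with capitals for CACGNG on either strand, from RefSeq on GRCh38.p14.
TXNIP, chr1:145996530-145996829, minus strand: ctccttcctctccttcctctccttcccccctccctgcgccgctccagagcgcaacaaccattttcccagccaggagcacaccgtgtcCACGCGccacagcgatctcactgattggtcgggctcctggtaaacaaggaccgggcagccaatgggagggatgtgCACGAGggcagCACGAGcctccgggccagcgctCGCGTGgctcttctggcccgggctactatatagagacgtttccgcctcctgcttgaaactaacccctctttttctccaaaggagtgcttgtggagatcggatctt
It held 4 copies, and 0.524% of promoters held as many. ARRDC4, a related arrestin and also a MondoA target, held 3 copies and had 6.59 with pyruvate and 6.69 in E8. At least 3 copies occurred in 1.98% of promoters. Of 12 detected MondoA targets and arrestins, TXNIP alone passed the rule, so 8.33% were lower, where 1.32% of all genes were. The list median was 0.12. The glucose transporter SLC2A1 had 11.50 with pyruvate and 10.99 in E8.

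Most genes that handle pyruvate itself differed little, and ME1, described above, lay highest at 0.94. In the second pair ME1 was called higher, at 1.21, and the list median was -0.02. Of 22 detected genes for pyruvate and lactate metabolism, 0 were higher and 1 was lower (4.55%) in the main pair, with a median of 0.15. Over all genes 1.32% were lower. The lower one was LDHD, a mitochondrial lactate dehydrogenase, which was dim, undetected with pyruvate and at least 1.23-fold lower there, and its call held under 4 of the 9 alternatives. MPC1, a subunit of the mitochondrial pyruvate carrier, had 11.24 with pyruvate and 10.69 in E8, with 0.47 by its other probe, and its partner MPC2 had 10.35 with pyruvate and 10.04 in E8. LDHA, the main lactate dehydrogenase of glycolytic cells, had 14.09 with pyruvate and 13.79 in E8. The pyruvate dehydrogenase subunits PDHA1 and PDHB differed by 0.29 and -0.05.

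The central pathways around pyruvate had no member past the rule. Glycolysis, the tricarboxylic acid cycle and the respiratory chain are bright lists, with median levels of 10.68, 10.99 and 11.75 with pyruvate. Only 0.444% of bright genes were called, so 0 calls do not set these lists apart. Glycolysis had 23 detected members with differences from -0.70, for the enolase ENO2, to 0.63, for the regulatory enzyme PFKFB4, and a median of -0.04. The tricarboxylic acid cycle had 20, from -0.69 for IDH2 to 0.49 for SDHD, both enzymes of the cycle or its link to respiration, and also a median of -0.04. Both medians were above 0 with scaling to the 75th percentile, at 0.09 and 0.10, where all genes had 0.06. The respiratory chain had 48, all between -0.35 and 0.81, with cytochrome c, CYCS, the highest at 8.21 with pyruvate and 7.41 in E8.

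The arrays read transcripts and not kinase activity, so the lists named for AMPK and mTOR describe the abundance of their components only. Of 14 detected AMPK subunits and kinases, 1 was lower (7.14%), FLCN, a partner of the FNIP proteins, and the median was -0.01. Over all genes 1.32% were lower. FLCN was dim and undetected with pyruvate, at least 1.01-fold lower, and its call held under 4 of the 9 alternatives. The catalytic subunit PRKAA1 had 8.54 with pyruvate and 8.91 in E8, and the kinase ULK1, which AMPK phosphorylates, had 11.01 with pyruvate and 10.73 in E8. Of 31 genes of the mTOR complexes and their regulators, 1 was lower (3.23%), SESN3, a sestrin that restrains mTOR complex 1. It was undetected with pyruvate and at least 1.66-fold lower there, with a call that held under 5 of the 9. MTOR had 10.34 with pyruvate and 10.47 in E8, and RRAGD, a GTPase that recruits mTOR complex 1 to lysosomes, had 10.26 with pyruvate and 11.05 in E8.

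**Figure D3:**
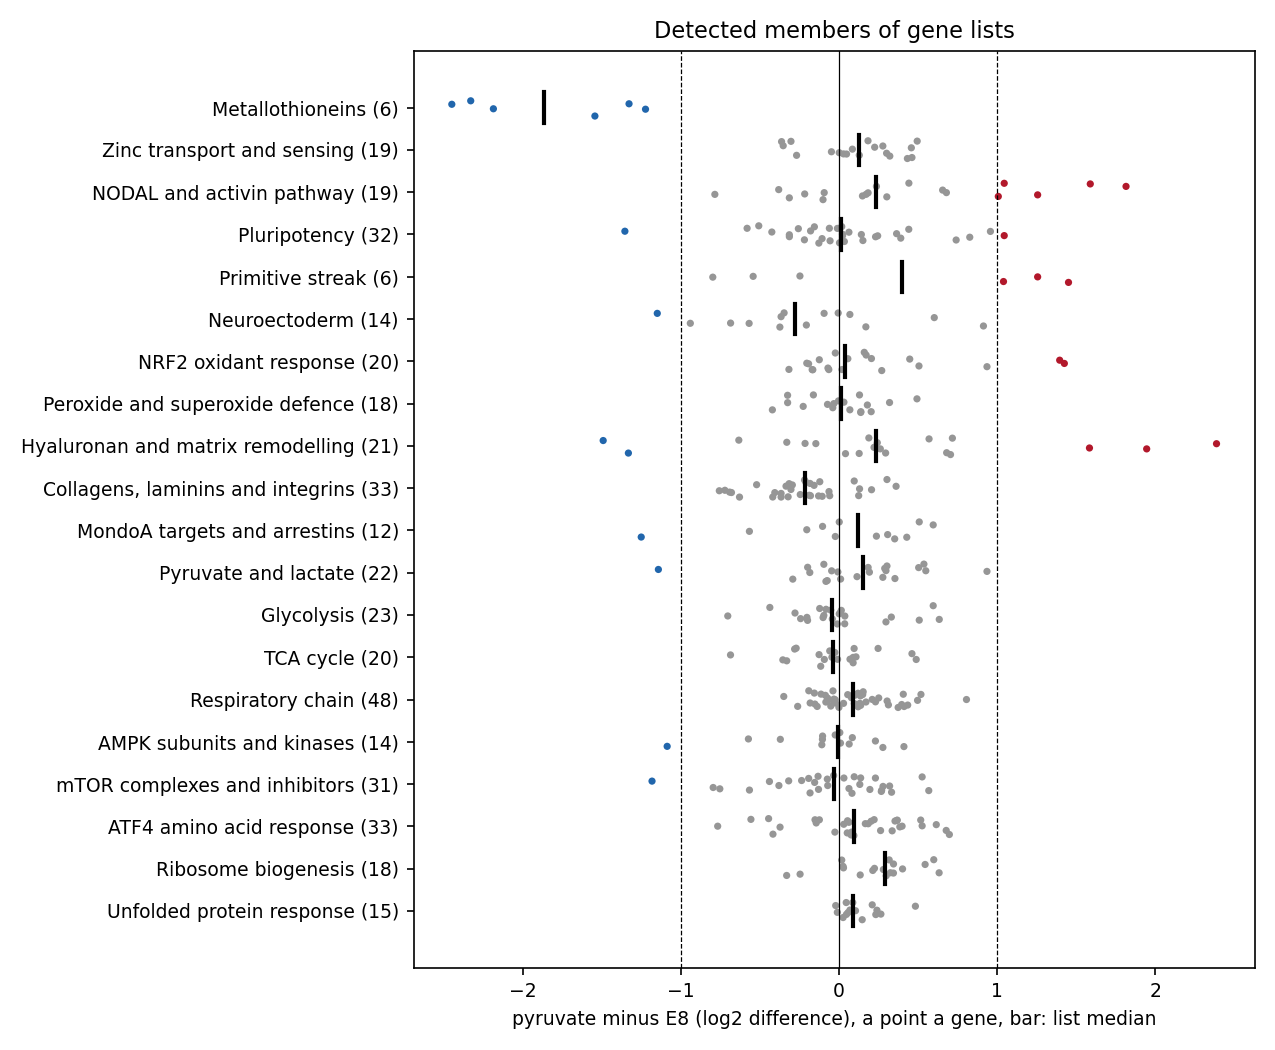
Log2 difference, pyruvate minus E8, of every detected member of 20 gene lists, with the number detected in parentheses. Bars are list medians, dashed lines the size rule, red and blue points genes higher and lower with pyruvate; the 6 metallothioneins lie wholly left of -1, while the metabolic lists centre near 0.

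The plot of gene lists sets these groups side by side. Signalling lists beyond NODAL held few calls in number, but these lists are short. The lower share was 12.5% in the WNT list and 7.14% among immediate early genes, where 1.32% of all genes were lower. In the Notch list 7.14% were higher, where 1.05% of all genes were. Each of these shares rests on 1 gene. Of 16 detected FGF and ERK feedback genes, 1 was higher, FGF8, and 1 lower, FGFR2, which was undetected with pyruvate. SFRP1, a secreted WNT antagonist, had 11.10 with pyruvate and 12.25 in E8 and was the 1 called of 8 detected genes in the WNT list, where the WNT target AXIN2 had 10.82 with pyruvate and 10.70 in E8. HEY1, a Notch target, had 8.29 with pyruvate and 7.01 in E8, but HES1, another, had 7.93 with pyruvate and 8.63 in E8. EGR1, an immediate early transcription factor, had 6.64 with pyruvate and 7.89 in E8, while FOS and JUN differed by 0.48 and 0.73. Of 10 detected BMP targets 0 passed, and ID1 had 11.03 with pyruvate and 10.91 in E8.

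Other large differences stood outside these groups. NETO2, an auxiliary subunit of kainate receptors, had 11.62 with pyruvate and 10.08 in E8. ODC1, which begins polyamine synthesis, had 11.67 with pyruvate and 10.35 in E8. EPAS1, a hypoxia-inducible factor subunit, had 7.80 with pyruvate and 6.50 in E8. It was the 1 called of 23 detected genes in the hypoxia list (4.35%), where 2.37% of all genes were called. TPM1, an actin-binding tropomyosin, had 11.00 with pyruvate and 12.11 in E8, and its other probes differed by between -2.32 and -1.05. FILIP1, which binds filamin, had 7.11 with pyruvate and 8.68 in E8. IGFBP5, a binding protein of insulin-like growth factors, had 6.81 with pyruvate and 8.42 in E8, with -0.67 by its other probe.

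A bound in place of a fold could be computed for 64 of the 65 higher calls detected on the pyruvate array alone and for 71 of the 99 lower calls detected on the E8 array alone. The other 29 calls, FGFR2 and IFIT3 among them, have none and rest on a difference from an undetected value. The neuropeptide NPY was at least 3.13-fold higher with pyruvate and the transcription factor KLF3 at least 2.98-fold. TRMT2B, a tRNA methyltransferase, was at least 3.68-fold lower with pyruvate, SMOC2, a secreted matrix protein, at least 2.96-fold, and GAA, the lysosomal alpha-glucosidase, at least 2.28-fold. More probes were detected on the E8 array, 40.1% of 47296, than on the pyruvate array, 35.2%, and the part of that gap in the counts was not tested.

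The second pair of arrays shows the same addition of pyruvate in cells that also received BMP4. MT1G, MT1F, TXNIP and SFRP1 were lower there too, and HAS2, CD44, SPP1, NODAL and TIMP4 were higher. LEFTY1, NETO2 and FCF1 did not keep their calls, and FCF1 turned round. Of the 120 genes higher with pyruvate in E8, 73 were detected in the second pair, and 18 of them (24.7%) were higher there and 5 lower. Of the 152 lower genes 108 were detected, and 29 of them (26.9%) were lower there and 8 higher. Of the 73 higher genes 71.2% lay above 0 in the second pair, and of the 108 lower genes 43.5%, where 48.5% of all genes did. Over all genes of that pair 3.72% were higher and 3.06% lower, 6.79% in either direction.

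The array of BMP4 with pyruvate stood apart from the other day 2 arrays. All 4 arrays detected 9728 genes. In 430 of them it exceeded the other arrays by 0.5 or more, and in 594 it lay as far below, where those were within 0.5 of each other. The pyruvate array did so in 84 and 80 genes and the E8 array in 37 and 41. The SD between the first and second probe was 0.53 in that pair. No value of the second pair can be given without this array, and its part in the shared calls was not tested.

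By brightness, 27 of the 133 dim genes detected in the second pair, 12 of 31 in the middle group and 8 of 17 bright genes had the same call in both pairs, and another 91 dim genes called in E8 were undetected there. Among the 23 genes that also passed without background correction, 13 had the same call and 19 the same sign. MT1G had 6.44 with BMP4 plus pyruvate and 9.80 with BMP4, a difference of -3.36. MT1F differed by -2.11 there, MT1H by -1.91, MT1E by -1.70 and MT1X by -1.39. MT2A, at -0.73, did not pass. Metallothioneins were therefore lower in both pairs by the size rule, MT2A excepted in the second.

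TXNIP had 7.92 with BMP4 plus pyruvate and 9.75 with BMP4, a difference of -1.82. HAS2 had 9.83 with BMP4 plus pyruvate and 7.30 with BMP4, and CD44 had 8.10 with BMP4 plus pyruvate and 5.37 with BMP4. SPP1 differed by 3.05 in that pair and NPY by 2.42. NODAL had 11.85 with BMP4 plus pyruvate and 10.18 with BMP4, and FGF8, at 1.42, and WNT3, at 1.65, were also higher. LEFTY1, by contrast, had 9.22 with BMP4 plus pyruvate and 9.81 with BMP4, and LEFTY2, at 0.94, fell short. NQO1, at 0.95, and HMOX1, at 0.67, had the same sign without a call. Whether any of these differences differs between the pairs was not tested.

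**Figure D4:**
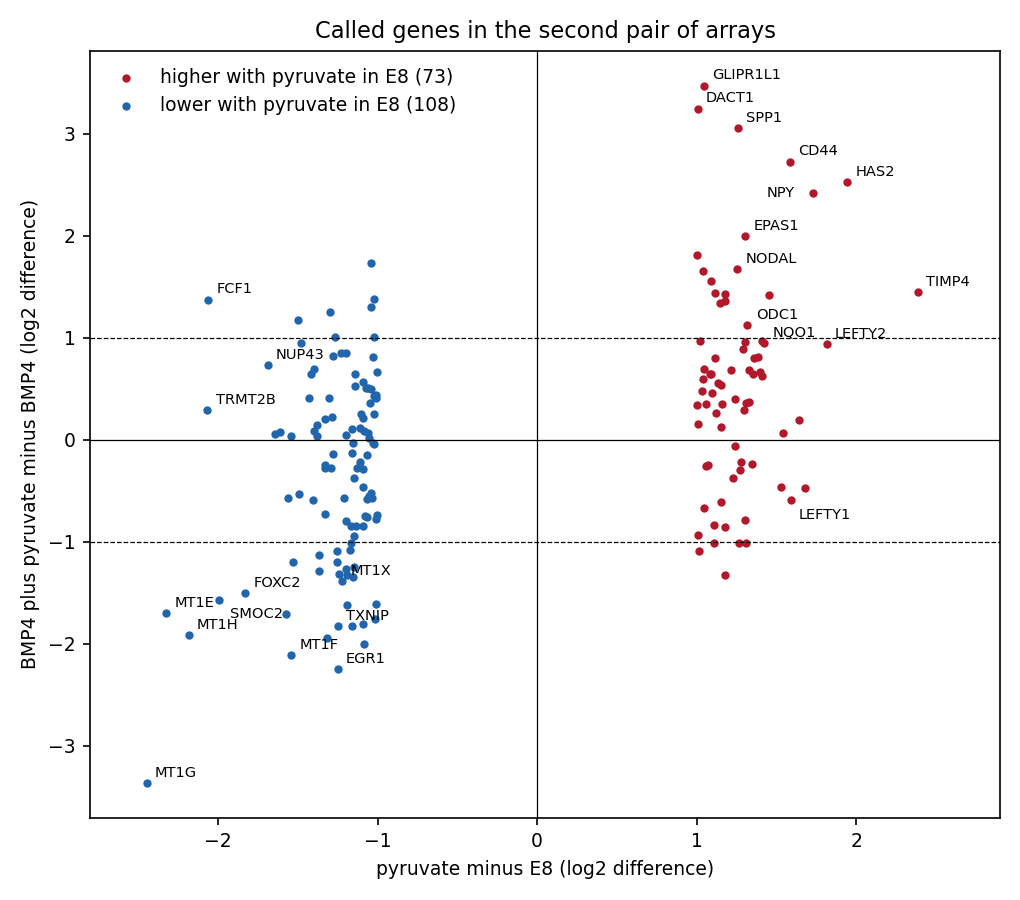
Log2 difference in the second pair, BMP4 plus pyruvate minus BMP4, against the difference in E8, for the 181 called genes also detected in the second pair, with 1 array in each condition. Red points are the 73 genes higher and blue points the 108 lower with pyruvate in E8; dashed lines mark the size rule, which 18 red points pass at the top and 29 blue points at the bottom.

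The plot of the second pair shows the metallothioneins together at the lower left and HAS2, CD44, SPP1 and NODAL at the upper right, with TRMT2B and NUP43, a nucleoporin, among the blue points above 0. SOX2, level between the arrays of the main pair, had 9.83 with BMP4 plus pyruvate and 11.88 with BMP4.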

How the data were processed

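RNA from 5 cultures of H1 cells was measured, 1 array a condition, and samples were grouped by the treatment in their labels. Per the file headers, the deposited intensity values are not normalized, with 1 summarized signal for each probe on each array, and a deposited detection p-value stands beside each. The scanner software is not given in the sources used here. How the log2 values of the other deposited table were made is unstated. In each column these never fell as intensity rose (tolerance 1e-06) and medians were 5.58, so they were used only as an alternative, with background subtraction and quantile normalization inferred from the values.

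Intensities were corrected with limma 3.58.1 (neqc, R 4.3.3), with normexp fitted from detection p-values, an offset of 16, quantile normalization over 5 arrays and a log2 transform. Quantiles hide any change in total RNA per cell, and the offset makes differences of dim probes smaller. Of 47296 probes, 30105 had 1 gene symbol in the platform annotation, 8 several and 17183 none, and 30066 matched RefSeq by Entrez identifier. A gene was read by its probe with the highest mean over the 5 arrays. Where all its probes were undetected on the dimmer array, a bound divides the bright value by the dim probe's own value or by the lowest detected value of that array, whichever is higher, 5.91 with pyruvate and 5.51 in E8. The files name no genome build. Steps were tested on simulated data. The number of arrays limits the precision, and 9 alternatives of processing were run.

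The members, the 49 gene lists and the rules were chosen with earlier results of these data known. Named genes were the 15 largest differences in each direction among genes detected on both arrays, the 6 largest bounds in each direction, up to 6 members of a list with calls or 2 of one without, by absolute difference, and the markers. Other genes named, such as ODC1, SPP1, DTNA, HSPA2 and list members with smaller differences, were chosen after their values were seen.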

Additional observations from a re-analysis of the deposited data

Results flagged for a closer look

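FCF1, which encodes a factor for maturation of the small ribosomal subunit, moved in opposite directions in the 2 pairs. It had 6.65 with pyruvate and 8.71 in E8, a log2 difference of -2.06, and its other probe gave -2.15. With BMP4 plus pyruvate it had 8.45, against 7.07 with BMP4, a difference of 1.37. The difference between the pairs was not tested, and 13 of the 272 called genes had opposite calls in the 2 pairs.

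Probes without a single gene symbol carried signal that the gene comparisons do not use. Of 17191 such probes, 4191 were detected on either array of the main pair. With pyruvate 70 were higher and 111 lower, which is 4.32% of those detected, where 2.37% of named genes were called. These shares are unlike, since the first counts probes and the second counts genes, each read by its brightest probe. Among named genes 5.86% of the dim group and 0.444% of the bright group were called, and brightness was not matched here.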

How the results depend on the processing

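Counts are given as genes higher, genes lower, shared higher calls and shared lower calls, the last 2 being calls in the same direction in both pairs, and were 120, 152, 18 and 29 as reported. Without background correction they were 11, 12, 4 and 6, and with a normexp offset of 50 they were 28, 43, 10 and 15. The deposited log2 table gave 53, 80, 11 and 17, detection on both arrays gave 55, 53, 10 and 16, and a 1.5-fold rule gave 592, 817, 116 and 162. Scaling to the 75th percentile left 94 genes lower, while its other counts (159, 17 and 30) stayed within 1.5 times. The offset and the missing correction shrink the differences of dim genes by construction, and the stricter filter tests fewer genes, 10257. Normalizing only the arrays compared, a detection p under 0.05 and the mean over probes kept all 4 counts within 1.5 times. Of 66 named genes past the size rule, all kept their direction under the 9 alternatives and 20 passed under every one. Medians of gene lists moved by over the SD between probes in 4 of 441 cases. That SD, 0.33, is of single genes and is a loose limit for a median. The glycolysis median changed sign within it, from -0.04 to 0.09. No paired analysis was possible because each group has 1 array, so the groups share fewer than 2 replicate numbers. Signal over background limits the dim genes.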

Other observations

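Genes for ribosome biogenesis, the assembly of ribosomal subunits in the nucleolus, lay slightly above the rest with pyruvate. Of 18 detected members, 16 were above 0 and 0 passed the size rule, with a median of 0.29 where all genes had 0.00. PES1 had 8.43 with pyruvate and 7.80 in E8, and RRS1 had 10.05 with pyruvate and 9.45 in E8. The list's median was 0.05 in the BMP4 pair. Genes of the unfolded protein response, which handles misfolded protein in the endoplasmic reticulum, had 13 of 15 detected members above 0, a median of 0.09 and 0 past the rule, with CRELD2 at 10.04 with pyruvate and 9.55 in E8. Cell cycle and replication genes had 0 of 38 past the rule and a median of 0.03.

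In a chosen list of small nuclear, nucleolar and related RNA genes, 1 of 25 detected was lower with pyruvate and 0 were higher. The list median was -0.08. By RefSeq class, 2 of 85 detected small nucleolar RNA genes were higher and 1 lower. Of 10 detected small nuclear RNA genes 0 were higher and 2 lower, where 2.37% of all genes were called. The genes named here were chosen after their values were seen. RPPH1, the RNA of ribonuclease P, lay above 0 at 7.49 with pyruvate and 6.56 in E8. The U1 small nuclear RNA, a part of the splicing machinery, has many near-identical gene copies, so it is uncertain which copy a probe reads. Its variant RNVU1-18 had 8.90 with pyruvate and 10.06 in E8, RNU1-3 had 8.74 with pyruvate and 9.65 in E8 and did not pass the rule, and the differences in the BMP4 pair were -1.82 and -2.37. Probes for microRNA genes were dim, and 1 of 31 detected was higher and 6 were lower, where 5.86% of all dim genes and 2.37% of all genes were called. Whether these probes read precursor or mature microRNA is not given in the sources used here. MIR302C, of a cluster active in pluripotent cells, had 6.79 with pyruvate and 7.94 in E8.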
